A study of Mus musculus with 3 samples.

Results

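The 10 genes described here code for subunits of the BAF chromatin remodelling complex, the mammalian form of SWI/SNF: Smarca2, Smarca4, Smarcc1, Smarcc2, Smarcd1, Smarcd2, Smarcd3, Actl6a, Arid1a and Ss18. They were taken by gene name from the merged transcript annotation of the heart ventricle, which holds 48617 loci with transcripts. A total of 11 loci bore one of these names, because a short unspliced locus antisense to Smarcc2 carries its name too, and all 10 genes lay among the 20117 loci with a RefSeq mRNA. The data are RNA-seq of C57BL/6 mouse heart ventricles at 3 stages, embryonic (E) days E10.5 and E13.5 and the adult of 8 weeks, with 1 stranded total RNA library per stage and no treatment or mutation in any group. The number of animals behind a library is not given in the sources used here. Levels are FPKM, fragment numbers divided by exon length and by library size, a scale per length meant for comparing different genes. The E13.5 library differed by transcript length, as described below, which limits comparisons there between genes of unlike length. With 1 library per stage, replicates are absent, so the differences described below were not tested and carry no p-value.

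BAF complexes use the energy of ATP hydrolysis to slide or evict nucleosomes, and so open or close DNA to transcription factors. Each complex is built around 1 ATPase, either the product of Smarca4 (Brg1) or that of Smarca2 (Brm), and several of its other positions can likewise be filled by alternative paralogs. In the mouse embryo, Brg1 and the Smarcd3 product Baf60c are known to be needed for normal heart formation, where Baf60c links the complex to cardiac transcription factors.

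All 10 genes were well above the level of 1 FPKM used here as the limit of expression, except for Ss18 at E13.5, which is listed at 0. Levels ranged from 8.67 to 40.0 FPKM at E10.5, between 3.93 and 54.6 FPKM among the 9 genes with a value at E13.5, and from 5.03 to 14.9 FPKM in the adult. The median of the genes was 23.1 FPKM at E10.5, 18.0 FPKM at E13.5 and 10.7 FPKM at 8 weeks, against 11.7, 11.8 and 8.38 FPKM for all expressed mRNA loci. Thus 8 of 10 genes lay above the mRNA median at E10.5, 7 of 9 at E13.5 and 6 of 10 in the adult. The spread between the genes was narrow in the adult and wide in both embryonic libraries.

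**Figure D1:**
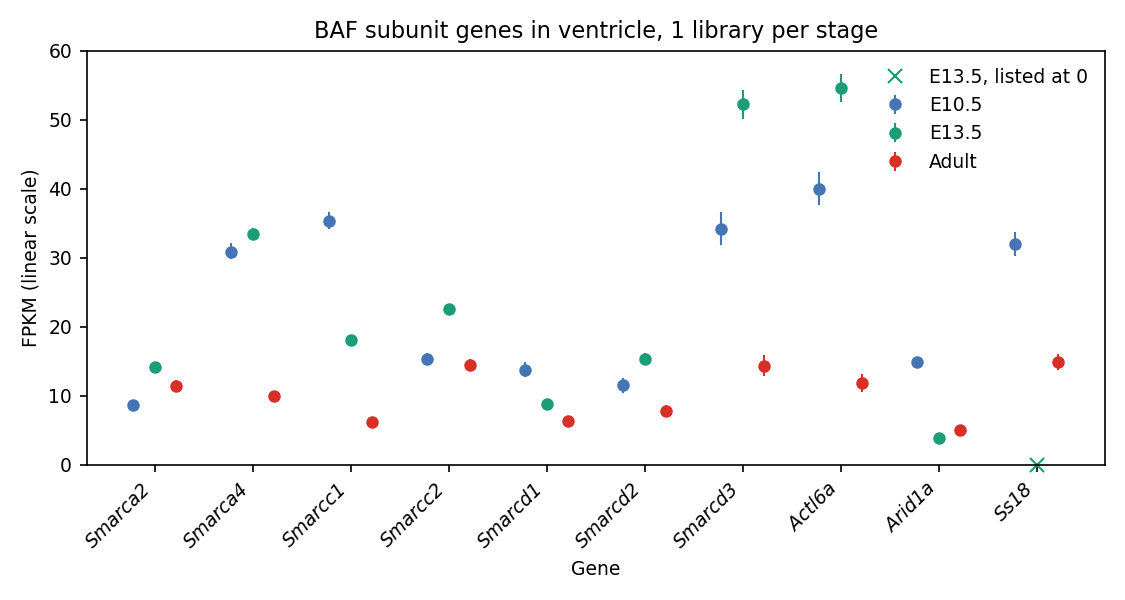
Levels of the 10 BAF subunit genes in FPKM (linear vertical axis) in the E10.5, E13.5 and adult libraries, where each point is 1 library and each bar an approximate 95% counting interval. Smarca4, Smarcd3 and Actl6a stand above 30 FPKM in both embryonic libraries and below 15 FPKM in the adult, while the cross marks Ss18, listed at 0 at E13.5.

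Depth was estimated from the values, since they are FPKM and the paper gives only an approximate read count, about the same for each sample. The most frequent low step of FPKM times length corresponded to about 13.8 fragments per FPKM and kilobase at E10.5 and in the adult and to about 26.7 at E13.5. These steps were 0.0725 and 0.0375 FPKM times kilobase, and each was taken as 1 fragment. Whether the larger step stood for more than 1 fragment was not tested, so the fragment numbers and counting intervals hold only under this estimate. At this depth the 10 genes rested on about 437 to 3097 fragments at E10.5, 745 to 5690 at E13.5 (9 genes) and 274 to 983 in the adult. The approximate 95% Poisson intervals reached up to 9.49%, 7.25% and 12.1% of the level on either side, and they cover counting error only, not the variation between animals or preparations. The E13.5 library also differed by transcript length. From E10.5 to E13.5 the median change of log2(FPKM + 1) was 0.57 for mRNA loci of up to 1000 nt and -0.46 for the 918 loci above 8000 nt, whereas from E10.5 to the adult the medians of all 6 length classes lay between -0.44 and -0.37. For this reason the comparison of E10.5 with the adult is given first.

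To ask how the subunit genes differed between the early embryonic and the adult ventricle, changes were taken as differences of log2(FPKM + 1), and a gene was called lower or higher when it changed by 1 or more, about 2-fold. From E10.5 to the adult, 7 of the 10 genes were lower and 0 were higher, where 27.3% of the 12569 expressed mRNA loci were lower and 14.8% were higher. The 7 genes were Smarcc1, Actl6a, Smarca4, Arid1a, Smarcd3, Ss18 and Smarcd1, in order of the size of the change. Their changes went from -2.34 for Smarcc1 to -1.02 for Smarcd1, and the last of them lay just past the limit. Smarcd2 (-0.52) and Smarcc2 (-0.08) were between the limits, and Smarca2 was the only gene with a value above 0 (0.37).

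The adult library was shifted as a whole, since the median change of all 12569 loci was -0.40. The median change of the 10 genes was -1.13, or -0.73 relative to that shift. With median-of-ratios scaling of the libraries, which brings the shift of all loci to -0.06, 4 of the 10 genes were lower (Smarcc1, Actl6a, Smarca4 and Arid1a), against 18.4% of all loci lower and 20.0% higher. After subtraction of the median change of loci of similar length, 3 genes were lower (Smarcc1, Actl6a and Smarca4), against 16.8% of all loci lower and 20.9% higher. Among the changes of all loci, Smarcc1 was at the 5.76th percentile, Actl6a at the 11.8th, Smarca4 at the 13.8th, Arid1a at the 16.8th and Smarca2 at the 74.6th. The percentiles of the other genes were 21.2 for Smarcd3, 25.4 for Ss18, 26.8 for Smarcd1, 45.3 for Smarcd2 and 61.9 for Smarcc2. In whole tissue, fewer cells of a type and less RNA per cell cannot be told apart.

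**Figure D2:**
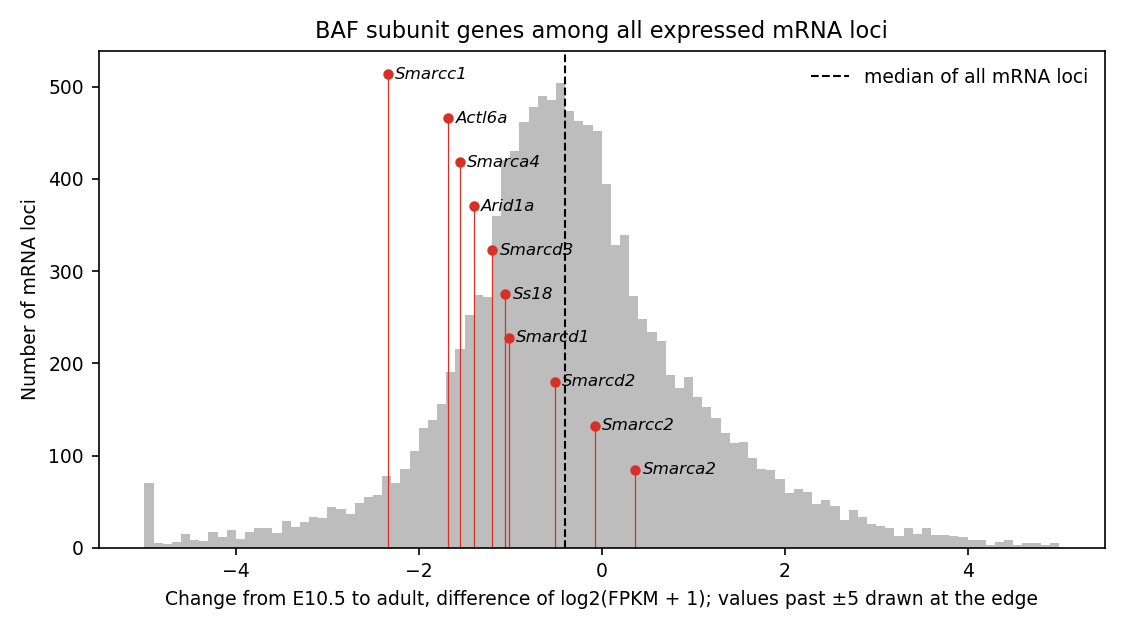
Histogram of the change from E10.5 to the adult, as the difference of log2(FPKM + 1), over 12569 expressed mRNA loci (grey, number of loci on the vertical axis), with the 10 BAF subunit genes as red stems whose height has no meaning. Most stems stand to the left of the dashed median of -0.40, with Smarcc1 at -2.34, while Smarcc2 and Smarca2 stand to its right.

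The ATPase genes of the complex changed by unlike amounts, and their levels were closest in the adult. Smarca4 (chromosome 9, 21616169 to 21704230, plus strand), whose longest RefSeq transcript has 34 exons and 6376 nt, was at 30.9 FPKM at E10.5, 33.5 FPKM at E13.5 and 9.90 FPKM at 8 weeks. Its embryonic levels were close to each other and the adult level was 3.12-fold below that of E10.5, a change of -1.55. Smarca2 (chromosome 19, 26605160 to 26778321, plus strand), of 5813 nt, was at 8.67, 14.1 and 11.5 FPKM in the same order. It was the lowest of the genes at E10.5, and its changes of 0.65 from E10.5 to E13.5 and -0.28 from E13.5 to the adult both stayed within the limits.

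The ratio of the ATPases within 1 library does not depend on how the libraries were scaled. There were 3.56 times as many FPKM of Smarca4 as of Smarca2 at E10.5 (95% counting interval 3.28 to 3.88) and 2.37 times as many at E13.5 (2.25 to 2.49). In the adult the ratio was 0.863 (0.786 to 0.948), so that Smarca2 was the higher of the pair. Smarca4 held 78.1% of the summed FPKM of both genes at E10.5, 70.3% at E13.5 and 46.3% at 8 weeks. The ratio at E10.5 was 4.13 times that of the adult. The annotation also holds a short RefSeq isoform of Smarca2 with 9 exons and 1962 nt, which starts within the gene, and the values per locus do not separate it from the full-length mRNA.

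The 250 bases before the RefSeq start of each gene are shown for both ATPase genes because their ratio changed between the stages. They are from the RefSeq promoter table for GRCm38.p6, the assembly of mm10, written 5′ to 3′ on the strand of the gene, with capitals for a GC box (GGGCGG or CCGCCC), the ETS core CCGGAAG or CTTCCGG, and the NRF1 core GCATGCGC or GCGCATGC. The Smarca4 window lies at chr9:21615919-21616168 and the Smarca2 window at chr19:26604910-26605159, both on the plus strand.
Smarca4: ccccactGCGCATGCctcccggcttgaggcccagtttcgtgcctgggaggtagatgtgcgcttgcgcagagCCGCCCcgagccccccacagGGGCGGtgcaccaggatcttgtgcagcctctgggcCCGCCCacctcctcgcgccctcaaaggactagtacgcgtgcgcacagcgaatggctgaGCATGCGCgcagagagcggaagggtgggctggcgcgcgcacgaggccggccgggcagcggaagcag
Smarca2: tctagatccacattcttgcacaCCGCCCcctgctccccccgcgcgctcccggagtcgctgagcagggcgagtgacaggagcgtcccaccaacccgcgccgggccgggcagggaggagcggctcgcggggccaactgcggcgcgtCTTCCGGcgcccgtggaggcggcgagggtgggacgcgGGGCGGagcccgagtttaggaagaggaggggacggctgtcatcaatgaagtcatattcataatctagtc
The Smarca4 window held 3 GC boxes and 2 NRF1 cores and the Smarca2 window 2 GC boxes and 1 ETS core. Among the 32851 windows of the table, 32.7% held a GC box, 6.91% an ETS core and 2.26% an NRF1 core on either strand. The forms of the NRF1 core on the opposite strands share the letters GCATGC, and no marked motif overlapped another. Both windows were rich in CpG, with 25 in Smarca4 and 28 in Smarca2 against a median of 6 in all windows. These matches describe the letters and are no evidence of binding.

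The genes of the scaffold subunits, which hold the complex together as dimers, also changed in their ratio. Smarcc1 (Baf155) was at 35.3 FPKM at E10.5, 18.0 FPKM at E13.5 and 6.18 FPKM at 8 weeks, with a lower value at each later stage. Its level in the adult was 5.72-fold below that of E10.5, the largest difference among the 10 genes. The deposited locus (chromosome 9, 110132024 to 110262576, plus strand) joins Smarcc1 with its downstream neighbour Cspg5 (110243783 to 110262576), a proteoglycan gene, which gives 2 of the 10 transcripts of the locus. How much of the FPKM came from Cspg5 was not tested.

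Smarcc2 (Baf170), on chromosome 10 from 128459236 to 128490174 on the plus strand, was at 15.3, 22.5 and 14.4 FPKM. Its levels at E10.5 and in the adult had overlapping counting intervals, 14.4 to 16.3 and 13.6 to 15.4 FPKM. The antisense locus that bears its name (128489482 to 128490587, minus strand) overlaps an exon of Smarcc2 and was at 0.539, 0.483 and 0.351 FPKM, far below the sense locus. The ratio of the joined Smarcc1 locus to Smarcc2 was 2.31 at E10.5 (2.15 to 2.48), 0.800 at E13.5 (0.761 to 0.842) and 0.428 in the adult (0.385 to 0.476). In these libraries the joined Smarcc1 locus was below Smarcc2 at E13.5 already, while Smarca4 was below Smarca2 only in the adult. The ratio of the joined Smarcc1 locus to Smarcc2 at E10.5 was 5.39 times that of the adult. In both pairs the first gene has the longer transcript, and from E10.5 to E13.5 the median change was -0.21 for loci of 6000 to 8000 nt and 0.00 for those of 4000 to 6000 nt. The part of this gap in the ratios with the E13.5 library was not tested.

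**Figure D3:**
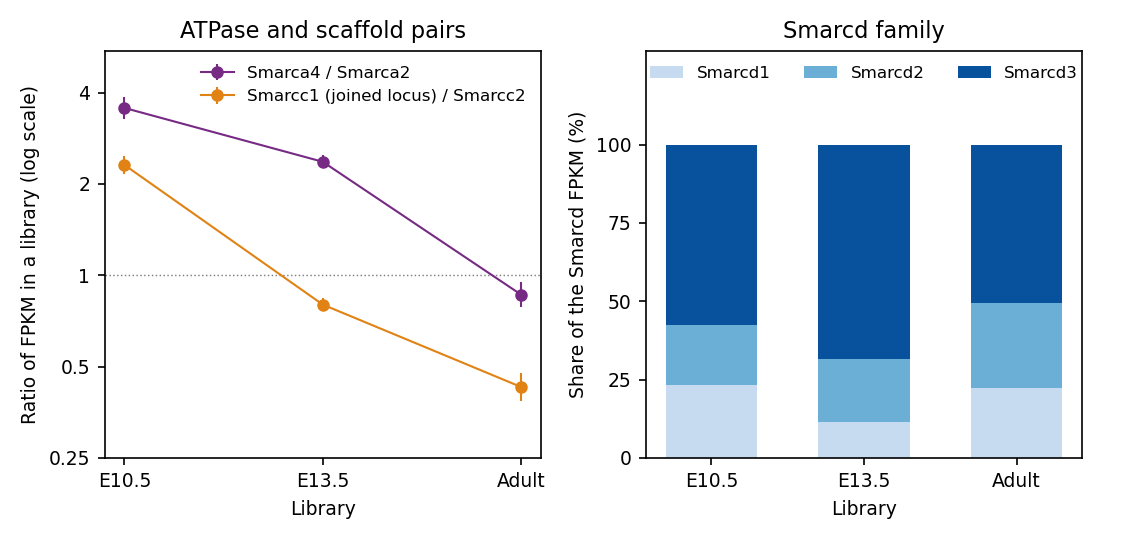
Left, ratio of FPKM within each library (log axis) for Smarca4 to Smarca2 and for the joined Smarcc1 locus to Smarcc2, with approximate 95% counting intervals and a dotted line at equal levels. Right, share of the summed FPKM of Smarcd1, Smarcd2 and Smarcd3 held by each gene. The ATPase ratio passes from 3.56 to 0.863 and the scaffold ratio from 2.31 to 0.428, while Smarcd3 keeps the largest share in all 3 libraries.

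The windows of the scaffold genes are shown for the same reason, again on the plus strand and with the same motifs in capitals. That of Smarcc1 lies at chr9:110131774-110132023 and that of Smarcc2 at chr10:128458986-128459235.
Smarcc1: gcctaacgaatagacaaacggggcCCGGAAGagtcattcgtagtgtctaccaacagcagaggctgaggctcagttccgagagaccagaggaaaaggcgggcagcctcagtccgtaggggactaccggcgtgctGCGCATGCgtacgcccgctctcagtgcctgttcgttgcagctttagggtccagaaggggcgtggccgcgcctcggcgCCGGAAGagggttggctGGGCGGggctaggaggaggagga
Smarcc2: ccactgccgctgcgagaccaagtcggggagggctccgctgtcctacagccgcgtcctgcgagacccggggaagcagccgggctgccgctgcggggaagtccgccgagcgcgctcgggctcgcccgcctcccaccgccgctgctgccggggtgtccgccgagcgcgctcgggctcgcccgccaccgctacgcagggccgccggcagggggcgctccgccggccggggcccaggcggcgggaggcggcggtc
The Smarcc1 window held 1 GC box, 2 ETS cores and 1 NRF1 core. The Smarcc2 window held none of these motifs, although it had the most CpG of all windows of the genes, 40. A window was listed for 9 of the 10 genes, and Smarcc2 was the only one of the 9 without a GC box. A CCAAT box (CCAAT or ATTGG) was in 0 of the 9, where 33.8% of all windows held one, and a TATA box (TATAAA or TTTATA) was in 1, Smarcd2, where 12.4% of all windows held one. The Smarcd2 window, which belongs to the shorter of its annotated transcripts, was also the only one with fewer CpG than the median, 4. Arid1a had 2 windows, neither of which began at the assembled start of the gene.

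The Smarcd genes code for the Baf60 subunits, which bridge the complex to transcription factors, and 1 of the 3 is used per complex. Smarcd3 (Baf60c; chromosome 5, 24592539 to 24602034, minus strand) was at 34.2 FPKM at E10.5, 52.2 FPKM at E13.5 and 14.4 FPKM at 8 weeks. It was highest at E13.5, and its adult level was 2.38-fold below that of E10.5 and 3.64-fold below that of E13.5. Smarcd1 (Baf60a; chromosome 15, 99702287 to 99713995, plus strand) was at 13.7, 8.86 and 6.29 FPKM, highest at E10.5. Smarcd2 (Baf60b; chromosome 11, 106263171 to 106272972, minus strand) was at 11.5, 15.3 and 7.74 FPKM, with changes of 0.38 and -0.90 that stayed within the limits.

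Smarcd3 was the highest of the family in each library, with 57.5% of their sum in the E10.5 library, 68.4% at E13.5 and 50.6% at 8 weeks. The sum of the 3 genes was 59.4, 76.4 and 28.4 FPKM. Smarcd3 exceeded Smarcd1 2.49-fold at E10.5 (2.23 to 2.77) and 2.28-fold in the adult (1.94 to 2.69), intervals that overlap, but 5.89-fold at E13.5 (5.43 to 6.41). Over Smarcd2 it stood 2.97-fold at E10.5 (2.64 to 3.35), 3.41-fold at E13.5 (3.17 to 3.66) and 1.85-fold in the adult (1.58 to 2.17). The family therefore kept its leading gene through all 3 stages, unlike the ATPase and scaffold pairs. Smarcd3 has a shorter transcript (1725 nt) than Smarcd1 (3153 nt) and Smarcd2 (2755 nt), and the part of length in the E13.5 ratios was not tested. The 3′ end of Smarcd3 overlaps an exon of Chpf2 on the other strand, which was at 7.66, 9.96 and 2.81 FPKM.

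Actl6a (Baf53a; chromosome 3, 32708546 to 32726971, plus strand) codes for the actin-related protein that sits on the ATPase, which neurons replace by the product of Actl6b. It was at 40.0 FPKM at E10.5, 54.6 FPKM at E13.5 and 11.8 FPKM at 8 weeks, the highest of the genes in both embryonic libraries. The adult level was 3.38-fold below that of E10.5 and 4.62-fold below that of E13.5. Its last exons overlap those of Mrpl47 on the other strand, which was at 26.0, 34.0 and 19.7 FPKM. The kit keeps strand, but it is not stated whether the FPKM were computed by strand. Actl6b was listed at 0 in all 3 libraries.

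Arid1a (Baf250a; chromosome 4, 133679008 to 133753611, minus strand) codes for the large DNA-binding subunit that marks the canonical BAF complex. With 8175 nt it has the longest transcript of the genes. It was at 14.9 FPKM at E10.5, 3.93 FPKM at E13.5 and 5.03 FPKM at 8 weeks, so that both later libraries were low. Its change of -1.69 from E10.5 to E13.5 was at percentile 0.764 of all loci, and at percentile 2.72 among loci above 8000 nt. Arid1b, the alternative subunit at this position, was at 6.00, 4.27 and 4.92 FPKM, a change of -0.24 between the outer stages.

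Ss18 codes for a stable subunit best known as a partner in the gene fusion of synovial sarcoma. It was at 32.0 FPKM at E10.5 and 14.9 FPKM in the adult, a change of -1.05, and it was the highest of the 10 genes in the adult by value. At E13.5 it was listed at 0, although the annotation gives its locus 10 transcripts, and no change is given for that library. An exact 0 can be a failed estimate: 2 mRNA loci were listed at 0 at E13.5 while at 10 FPKM or more in both other libraries, and Ss18 was 1 of them. Its paralog Ss18l1 lies in a locus joined with Gtpbp5, which was at 10.4, 12.5 and 13.0 FPKM.

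The order of the levels changed with stage. At E10.5 it was Actl6a, Smarcc1, Smarcd3, Ss18, Smarca4, Smarcc2, Arid1a, Smarcd1, Smarcd2 and Smarca2, from high to low. Among these neighbours, the counting intervals overlapped from Smarcc1 through Smarca4 and from Smarcc2 through Smarcd1. At E13.5 the order was Actl6a, Smarcd3, Smarca4, Smarcc2, Smarcc1, Smarcd2, Smarca2, Smarcd1 and Arid1a, and overlap was seen for Actl6a with Smarcd3 and for Smarcd2 with Smarca2. In the adult the order was Ss18, Smarcc2, Smarcd3, Actl6a, Smarca2, Smarca4, Smarcd2, Smarcd1, Smarcc1 and Arid1a, with overlap of neighbours from Ss18 through Smarca2 and from Smarcd2 through Smarcc1. Smarcc1 thus went from the second place to the ninth, and Smarca2 from the last to the fifth.

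The embryonic libraries were compared next. From E10.5 to E13.5, 1 of 9 genes was lower (Arid1a) and 0 were higher, where 4.85% of all loci were lower and 5.89% were higher (6.29% and 4.18% with median-of-ratios scaling). The share of the genes past the limit was thus near that of all loci. Smarcc1 (-0.93) lay close to the limit and passed it, at -1.08, with median-of-ratios scaling. The median change of the 9 genes was 0.38, against 0.17 for all loci. The genes with shorter transcripts, Smarcd3 and Actl6a, had changes of 0.60 and 0.44, where the median of their length class was 0.43. Smarca2 and Smarcc2, both of 4000 to 6000 nt, had changes of 0.65 and 0.53, above the upper quartile of 0.30 of their class.

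**Figure D4:**
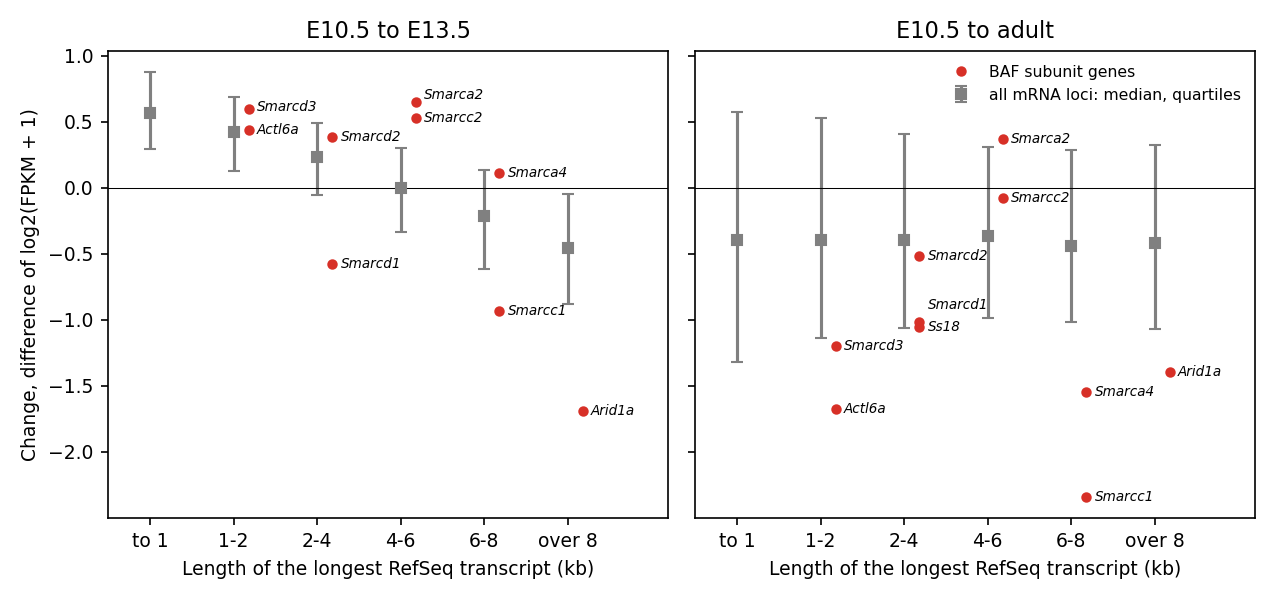
Change of log2(FPKM + 1) against the length class of the longest RefSeq transcript, from E10.5 to E13.5 on the left and from E10.5 to the adult on the right, with the median and quartiles of all expressed mRNA loci in grey and the BAF subunit genes in red. The grey medians descend from 0.57 to -0.46 on the left and stay between -0.44 and -0.37 on the right.

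Between E13.5 and the adult, 4 of 9 genes were lower (Actl6a, Smarcd3, Smarca4 and Smarcc1) and 0 were higher, where 32.1% of all loci were lower and 13% were higher. The changes of the 4 genes were -2.12, -1.79, -1.66 and -1.40. With median-of-ratios scaling 3 of them remained lower, without Smarcc1 at -0.89, against 18.9% of all loci lower and 20.8% higher. After centring by length class the changes were -1.33 for Actl6a, -1.004 for Smarcd3, just past the limit, -1.51 for Smarca4 and -1.25 for Smarcc1, against 17.1% of all loci lower and 20.6% higher. The median change of the 9 genes was -0.90, against -0.50 for all loci. Arid1a was the only gene with a value above 0 (0.29). The 3 pairs of stages share their libraries, so their values are not independent of each other.

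Other subunits of BAF complexes were examined as a list of 21 genes. Between E10.5 and 8 weeks, 4 of the 20 with a change were lower and 0 were higher, with a median of -0.71 and a range of -2.42 to 0.77. Smarcb1, a core subunit that touches the nucleosome and a known tumour suppressor, had the largest difference, at 45.8, 54.4 and 7.76 FPKM. Pbrm1, the polybromo subunit of the related PBAF complex, was at 45.1, 22.2 and 17.8 FPKM, a change of -1.29. Dpf2, a histone reader, and Bcl7a, an accessory subunit, had changes of -1.13 and -1.10. The share of 4 in 20 was below the 27.3% of all loci that were lower, but the sets were unlike. Dpf1, at most at 0.654 FPKM, stayed below the 1 FPKM that all those loci reached. With 1 FPKM added before the log, neither Dpf1 nor Bcl11b (0.933 FPKM at E10.5) could be called lower from E10.5. With median-of-ratios scaling 1 of the 4, Smarcb1 (-2.04), remained lower, and Bcl7b (1.15), another accessory subunit, was higher. From E10.5 to E13.5, 0 were lower and 1 was higher, Smarce1, an HMG-box subunit, which was at 14.0, 31.0 and 6.71 FPKM. Its change of 1.09 fell below the limit with median-of-ratios scaling (0.94) and after centring by length class (0.86), while Pbrm1 (-1.14) was lower with the former. From E13.5 to the adult 8 of 20 were lower and 1 was higher, where 32.1% of all loci were lower and 13% higher, and with median-of-ratios scaling 3 were lower and 1 was higher.

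The other remodeller families were given for comparison. In the list of the NuRD complex and CHD genes, 10 of 19 were lower from E10.5 to the adult and 0 were higher, with a median of -1.07, beside 27.3% and 14.8% of all loci. With median-of-ratios scaling 7 were lower and 1 was higher, beside 18.4% and 20.0% of all loci. Its ATPases past the limit were Chd7 (-1.62), Chd4 (-1.28) and Chd3 (-1.13), of which Chd4 (-0.87) and Chd3 (-0.81) lost the call with that scaling. In the ISWI list 1 of 8 was lower, the ATPase gene Smarca1, at 16.8, 28.1 and 0.826 FPKM, and the median was -0.68. In the list of the INO80, SRCAP and TIP60 complexes 2 of 11 were lower, with a median of -0.54, and 1 of them was Ruvbl2 (-2.02), an ATPase of the AAA+ class. Among 9 genes of the general transcription machinery 2 were lower, with a median of -0.53, and 1 was lower with median-of-ratios scaling. In these last 3 lists the share of lower genes did not exceed that of all loci.

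Markers of cell types and states differed between the same libraries, and their part in the changes of the BAF genes was not tested. The 10 proliferation genes all had lower values at 8 weeks, with a median change of -4.78 and summed levels of 560, 693 and 6.06 FPKM in order of stage. The 3 primitive erythroid genes were lower too, with sums of 6727, 16305 and 3.05 FPKM. From E10.5 to E13.5, Hbb-y went from 4356 to 15112 FPKM. Over the same stages Hbb-bh1 went from 1314 to 366 FPKM and Hba-x from 1057 to 827 FPKM. All 6 macrophage genes were higher in the adult, with sums of 38.9, 95.4 and 393 FPKM. Of 6 cardiomyocyte genes 3 were higher (5 with median-of-ratios scaling) and 0 lower. Their medians were 857, 1696 and 2053 FPKM, so cardiomyocyte markers were present in each library. Of 5 fibroblast genes 2 were higher, and of 5 endothelial genes 0 were past the limit (1 higher with that scaling). Of 5 neuron genes 1 was lower and 1 higher. Snap25, Syt1 and Rbfox3 of the neuron list, at most at 0.329 FPKM, could not be called lower with 1 FPKM added. From E10.5 to the adult 27.3% of all loci were lower and 14.8% higher (18.4% and 20.0% with median-of-ratios scaling). None of the genes of these lists was listed at 0.

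The assembled transcripts of the 10 genes numbered 55, of which 20 matched RefSeq and 35 were other isoforms of the same genes. Actl6a had a single transcript, while Smarca4 and Ss18 had 10 each. Since the study asked about transcripts that share a promoter region with a gene on the opposite strand, starts within 3000 bp of a start of the 10 genes were also listed. They were found at Smarcd1, Smarcd3 and Arid1a, and all of these loci were unspliced. The study kept only spliced candidates with a lower limit of 1 FPKM, so these loci fall outside its screen. The one at Smarcd1, antisense to Accn2 and with its start 72 bp away, was at 0.744, 1.36 and 1.21 FPKM. Smarcd3 had 2 unnamed ones, at 797 and 1758 bp, the nearer of which was at 0.0604, 0.0659 and 0.829 FPKM and the other at 0.0701, 0.118 and 0.658 FPKM. Both had their highest value in the adult, but all their values lay below the limit of 1 FPKM, and no counting interval was taken for them. The one at Arid1a, at 1025 bp, was at 0.531, 0.648 and 0.270 FPKM.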

How the data were processed

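Total RNA of C57BL/6 heart ventricles was sequenced as 1 paired-end library at each of 3 stages. Per the study's text and the submitters' processing notes, reads were aligned by the authors to mm10 (TopHat2, Bowtie) and assembled by Cufflinks, both with a reference annotation and without one, and the authors deposited FPKM per merged locus with the exons of the merged transcripts. Further tool versions and the use of strand in quantification are not given in the sources used here.

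Genes were matched by name (Gltscr1l by its RefSeq accession, while Srcap of the third remodeller list had no match by name). An mRNA locus had a transcript matching a RefSeq mRNA, and those reaching 1 FPKM in any library were compared. Changes are differences of log2(FPKM + 1), which understate the change of low genes, and were called at 1. They were not tested, because there is 1 library per stage. Ratios use FPKM without a pseudocount. Depth was approximated from the most frequent low step of FPKM times length over loci with a single exon, and 95% Poisson intervals for levels and ratios cover counting error only. All 10 members were named. Of other BAF subunits those past the limit from E10.5 to the adult and the paralogs of members were named, and of other remodellers the SNF2-type ATPases past it. Smarce1, Bcl7b, Dpf1, Bcl11b and Ruvbl2 were named after their values were seen. The members and lists were chosen with earlier results of these data known. Promoter windows came from the RefSeq table. Alternatives were other scalings, pseudocounts, filters and limits, and centring by length class. The calling of changes was tested on simulated counts with planted changes, equal depth and no length trend. The other steps were not tested in this way. Calculations used Python 3.11.15, numpy 2.4.6, pandas 2.3.3, scipy 1.17.1 and matplotlib 3.10.9.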

Additional observations from a re-analysis of the deposited data

How the results depend on the processing

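No paired analysis was possible because 1 library was made per stage. Of 85 recomputed counts, medians and ratios, 14 moved and 0 reversed, where a count moved past 1.5 times, a median past a difference of 0.58 and a ratio or share past its counting interval. The median of the members lay between 0.09 and 0.41 from E10.5 to E13.5 (0.38 as deposited), between -0.98 and -0.29 from E13.5 to the adult (-0.90) and between -1.18 and -0.73 from E10.5 to the adult (-1.13). Median-of-ratios scaling gave 2 members lower from E10.5 to E13.5 (1 as deposited) and 4 from E10.5 to the adult (7 as deposited). It also gave 1 other BAF subunit lower (4 as deposited) and 1 higher (0 as deposited) from E10.5 to the adult. Scaling without globin and mitochondrial loci gave 2 members lower from E10.5 to E13.5, against 8.64% of all loci. A limit of 0.5 gave 3 members lower and 3 higher from E10.5 to E13.5. A limit of 2 gave 0 members lower from E10.5 to E13.5, 1 from E13.5 to the adult and 1 from E10.5 to the adult. The shares of all loci past limits of 0.5 and 2 are not given here, so those counts have no background beside them. Centring by length class, chosen after the data were seen, gave 3 members lower from E10.5 to the adult, 1 other subunit lower and 1 higher, and a median of -0.29 from E13.5 to the adult. Of 112 recomputed changes of single members 9 had another sign. They belonged to Smarca4 from E10.5 to E13.5, to Smarca2 and Smarcd1 from E13.5 to the adult, and to Smarcc2 from E10.5 to the adult. The cause was not tested beyond what each setting changes by construction. The missing replicates, the estimated depth and the joined Smarcc1 locus limit what these values can show.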
